A study of Homo sapiens with 8 samples.

Results

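The endoplasmic reticulum (ER) folds the proteins that a cell secretes, and the unfolded protein response adjusts its folding and disposal capacity. The genes described here are its chaperones, disulfide enzymes, disposal machinery and sensors, 37 human genes chosen by symbol from a list of the pathway. All 37 were listed among the 14870 rows (14869 distinct symbols) of the table that the authors deposited. RNA was sequenced from LX-2, a human line of hepatic stellate cells, the collagen-producing cells of the liver. All 8 samples received recombinant human TGF-β1 for 72 h in medium with low serum. Of these, 4 received the solvent DMSO with it and 4 received 5 µM ML290, a compound that activates RXFP1, the receptor of relaxin. No group without TGF-β1 is compared here, so every difference below is between ML290 and DMSO in cells that both received the cytokine.

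When unfolded proteins accumulate in the ER, 3 membrane sensors respond. IRE1, encoded by ERN1, splices the messenger RNA of the transcription factor XBP1. ATF6 travels to the Golgi, where it is cut to release a transcription factor. PERK, encoded by EIF2AK3, slows translation and raises ATF4. ATF6 and spliced XBP1 raise chaperones and the machinery of ER-associated degradation (ERAD), which returns misfolded proteins to the cytosol for the proteasome. Stellate cells that make collagen carry a heavy load of secreted protein, so this machinery is prominent in them.

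Values are the authors' group means over 4 samples, on a scale of normalised read counts, with the authors' own adjusted p. No value per sample was used, so no SD and no overlap between groups can be given, and nothing in the labels says whether the samples of a group came from separate cultures. The low values of the table lie near multiples of a common step, 0.0522 for ML290 and 0.0476 for DMSO in the sum of 4 libraries, which would be worth 1 read. With the step and an offset fitted to the same values, 78.3% of 1335 low values came within 0.15 of a whole step for ML290, as did 91.2% of 1283 for DMSO. By that step the least abundant member, ERO1B, rests on about 195 reads in the 4 DMSO libraries and every other member on more. Depth per sample is otherwise unknown. Of 7 stellate cell markers, 6 were listed and LRAT was not. By the authors' deposited table, 5 of the 6 were lower with ML290 and 1 was higher. The collagen chain COL1A1 had 1809.6 with ML290 and 4231 with DMSO per the authors' deposited table, and ACTA2, PDGFRB, COL1A2 and DCN had ratios of 0.336, 0.442, 0.486 and 0.180. DCN was scarce in both groups, at 0.273 with ML290 and 1.52 with DMSO (adjusted p = 0.00128), per the authors' deposited table. The 1 stellate marker that was higher was the filament protein VIM, with a ratio of 1.18 (adjusted p = 0.0101) per the authors' deposited table. Of the markers of other liver cells, 1 of 5 for hepatocytes, 2 of 4 for macrophages, 3 of 4 for endothelium and 1 of 3 for cholangiocytes were listed, and the summed level of each list was at most 5.98 in either group. Of these 7, the macrophage marker CD14 was lower with ML290, at 3.59 against 5.38 (adjusted p = 0.0169) and the cholangiocyte marker KRT7 was lower too, at 1.91 against 3.43 (adjusted p = 0.000707) per the authors' deposited table, and the other 5 did not pass. The part of these marker shifts in the results below was not tested. In bulk RNA, a change in RNA per cell and a change in the mix of cells cannot be told apart.

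The members differ in the letters of their promoters, which are shown first because ATF6 and XBP1 act through known elements. The ER stress element (ERSE) is CCAAT, then 9 bases of any kind, then CCACG. Its variant ERSE-II is ATTGG, 1 base of any kind and CCACG, and the core of the unfolded protein response element (UPRE) is TGACGTGG. Both strands were searched from 250 bases before to 50 after each start in RefSeq promoters of GRCh38.p14. The UPRE core holds CGTGG, which is CCACG on the other strand, so it can overlap an ERSE-II. Entries existed for 34 members; PDIA3, DERL1 and DERL3 had none. An exact ERSE stood in 8 of the 34 (23.5%), against 27 of all 35116 promoter entries (0.0769%). Members are counted by gene and the background by entry; by gene, 25 of 27305 symbols held one. The members were chosen as genes of the response in which these elements are known. Such contrasts, here and for ERSE-II, are therefore a description and no independent support. The ERSE matches of these members follow, each with 5 bases on either side, on the strand of the motif, with its CCAAT and CCACG in capitals.
HSPA5: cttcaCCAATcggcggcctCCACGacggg
HSP90B1, distal: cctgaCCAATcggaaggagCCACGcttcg
HSP90B1, proximal: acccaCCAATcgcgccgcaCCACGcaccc
CANX: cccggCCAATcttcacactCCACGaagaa
XBP1: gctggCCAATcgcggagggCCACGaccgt
ERO1B: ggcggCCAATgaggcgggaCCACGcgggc
CALR: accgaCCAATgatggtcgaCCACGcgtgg
CRELD2: atggcCCAATccgagttcgCCACGagagg
PDIA6: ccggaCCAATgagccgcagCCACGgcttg

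These windows lie at chr9:125241386-125241414 on the minus strand for HSPA5, chr12:103930211-103930239 on the plus and chr12:103930316-103930344 on the minus strand for HSP90B1, and chr5:179698773-179698801 on the plus strand for CANX. For XBP1 the window is chr22:28800598-28800626 on the minus strand, for ERO1B chr1:236282178-236282206 on the plus strand and for CALR chr19:12938379-12938407 on the minus strand. That of CRELD2 is chr22:49918549-49918577 on the minus strand, and that of PDIA6, before an alternative start, is chr2:10812848-10812876 on the minus strand. The CANX window also precedes a start inside the annotated gene, which begins at 179678628. The exact ERSE-II stood in 3 of the 34 members (8.82%), HERPUD1, HYOU1 and SDF2L1, against 0.0541% of all promoter entries. HYOU1 held it at 2 sites, the farther of which overlaps a UPRE core. The ERSE-II matches follow in the same way, at chr16:56932020-56932040 (plus) for HERPUD1, chr11:119057375-119057395 and chr11:119057269-119057289 (both plus) for HYOU1 and chr22:21642109-21642129 (minus) for SDF2L1.
HERPUD1: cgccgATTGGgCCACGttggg
HYOU1, farther: ctgggATTGGaCCACGtcacg
HYOU1, nearer: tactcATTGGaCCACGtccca
SDF2L1: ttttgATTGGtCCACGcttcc

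To set the motifs in context, the 250 bases before the start are given for 3 members that rose and for CALR, which holds an exact ERSE and did not pass the test. They are written on the strand of the gene with the letters of the motif in capitals, from chr9:125241344-125241593 (minus) for HSPA5, chr22:28800570-28800819 (minus) for XBP1, chr16:56931892-56932141 (plus) for HERPUD1 and chr19:12938359-12938608 (plus) for CALR, all of GRCh38.p14.
HSPA5: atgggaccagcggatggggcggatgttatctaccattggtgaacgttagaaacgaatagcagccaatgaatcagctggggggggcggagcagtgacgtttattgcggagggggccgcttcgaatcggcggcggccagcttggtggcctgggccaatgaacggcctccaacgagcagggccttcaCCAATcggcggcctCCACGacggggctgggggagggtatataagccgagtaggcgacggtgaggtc
XBP1: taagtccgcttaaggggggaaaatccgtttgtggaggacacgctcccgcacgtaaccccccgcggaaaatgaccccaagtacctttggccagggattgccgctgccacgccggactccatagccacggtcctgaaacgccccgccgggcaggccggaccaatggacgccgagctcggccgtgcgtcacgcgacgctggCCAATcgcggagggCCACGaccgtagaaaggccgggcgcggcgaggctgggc
HERPUD1: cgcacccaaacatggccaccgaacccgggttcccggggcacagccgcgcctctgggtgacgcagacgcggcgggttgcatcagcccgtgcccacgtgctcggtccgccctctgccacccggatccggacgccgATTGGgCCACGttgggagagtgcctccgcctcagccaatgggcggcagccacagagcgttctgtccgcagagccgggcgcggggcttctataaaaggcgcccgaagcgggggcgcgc
CALR: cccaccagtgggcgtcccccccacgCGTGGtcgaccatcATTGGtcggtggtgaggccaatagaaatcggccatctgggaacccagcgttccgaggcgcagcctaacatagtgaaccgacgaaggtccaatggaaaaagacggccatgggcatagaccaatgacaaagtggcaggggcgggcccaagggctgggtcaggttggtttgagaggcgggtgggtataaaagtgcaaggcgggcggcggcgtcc

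With ML290, most members rose. At an adjusted p under 0.05 per the authors' deposited table, 25 of the 37 members were higher (67.6%), where 19.5% of all rows were higher with ML290. One member was lower, WFS1, where 15.6% of all rows were lower, and 35.1% of all rows passed in either direction. The remaining 11 members did not pass. The median ratio over the 37 was 1.29, or a log2 ratio of 0.37, against a median log2 ratio of 0.02 over all rows. Among the 25 higher members the median was 1.58-fold, and 13 reached 1.5-fold and 5 reached 2-fold per the authors' deposited table. These 5 were DNAJB9, ERN1, HERPUD1, XBP1 and UFM1. By p-value HERPUD1 ranked 9th of all rows, XBP1 32nd and ERN1 55th per the authors' deposited table. The 19.5% of all rows that were higher also stands beside each count by role that follows.

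**Figure D1:**
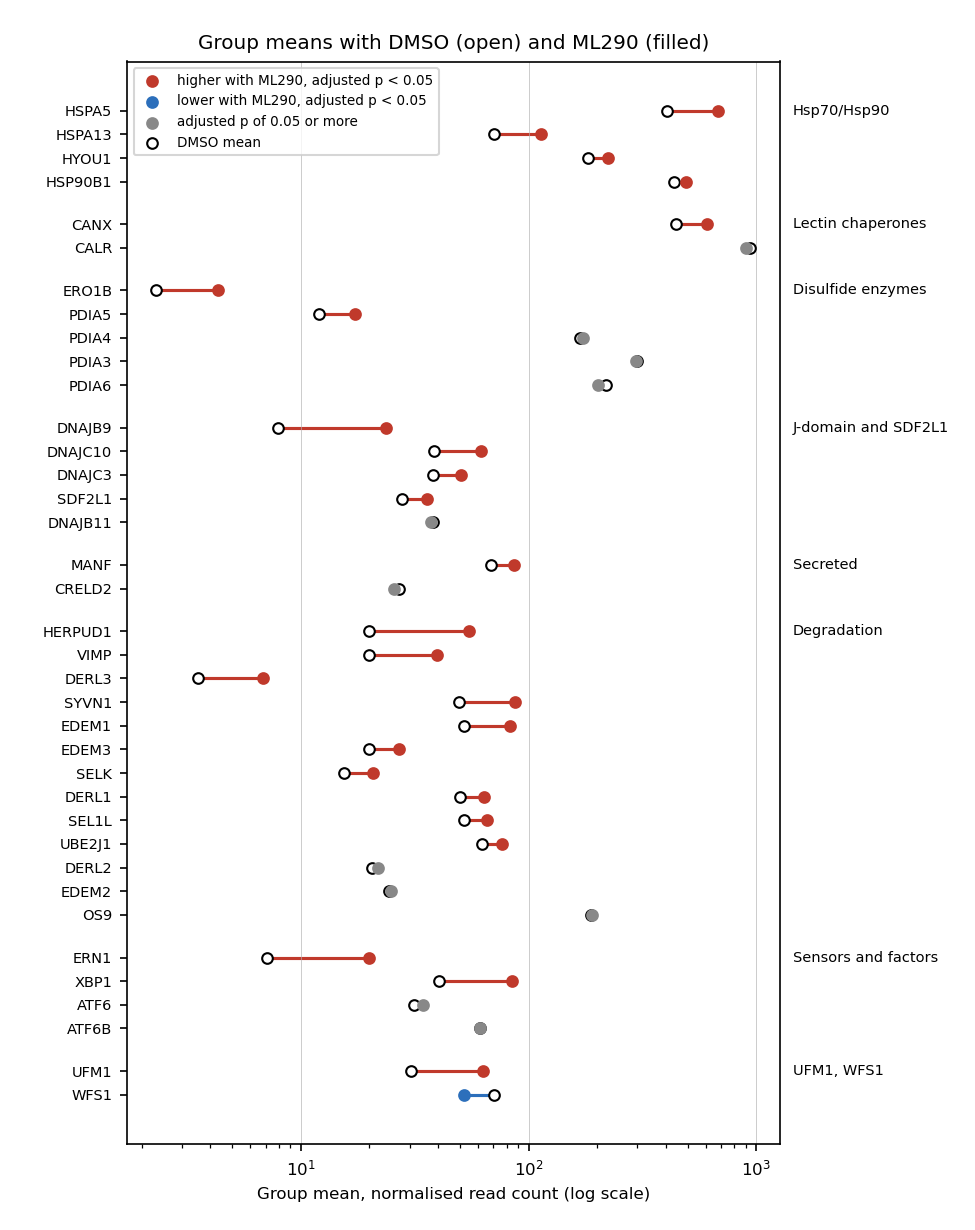
Group means of the 37 members in normalised read counts on a log axis, open for DMSO and filled for ML290, grouped by role; the line between them is red for members higher and blue for the member lower at an adjusted p under 0.05, and grey otherwise. DNAJB9, ERN1 and HERPUD1 have the longest lines, and the open and filled points of CALR, PDIA3, PDIA4 and OS9 nearly coincide. Each point is 1 group mean, so no error bar can be drawn.

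Among the sensors and factors of the members, ERN1 and XBP1 rose and the ATF6 genes did not pass the test. XBP1 is also counted below among the targets of ATF6. The gene of the third sensor, EIF2AK3, is outside the members and was 2.28-fold higher (adjusted p = 4.23e-07) per the authors' deposited table. ERN1, the IRE1 sensor itself, had a mean of 20.003 with ML290 and 7.11 with DMSO per the authors' deposited table, a rise of 2.81-fold (adjusted p = 3.55e-08). Its substrate XBP1 had 84.3 against 40.2, 2.10-fold higher (adjusted p = 1.53e-08), per the authors' deposited table. ATF6 had 34.5 against 31.4 (adjusted p = 0.159), and its homologue ATF6B 61.1 against 61.2 (adjusted p = 0.986), per the authors' deposited table. The difference between the IRE1 and ATF6 genes was not tested. A gene-level value does not separate spliced from unspliced XBP1 and does not show whether ATF6 protein was cut. ERN1 lies on chromosome 17 from 64039142 to 64130819 and XBP1 on chromosome 22 from 28794555 to 28800597 of GRCh38, both on the minus strand.

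The Hsp70 and Hsp90 chaperones of the ER all rose. HSPA5, known as BiP, the Hsp70 that also holds the sensors inactive, had a mean of 675 with ML290 and 404 with DMSO per the authors' deposited table, a rise of 1.67-fold (adjusted p = 1.06e-07). HSPA13, a relative of Hsp70 in microsomes, had 112.8 against 70.7, 1.60-fold higher (adjusted p = 0.000198), per the authors' deposited table. The rises of the other 2 were smaller. HYOU1, a nucleotide exchange factor for BiP, was 1.23-fold higher, at 224 against 182 (adjusted p = 0.00424), per the authors' deposited table. HSP90B1, the Hsp90 of the ER, was 1.13-fold higher, at 491 against 433, per the authors' deposited table, and its adjusted p of 0.0288 was the largest among the members that passed. HSPA5 lies on chromosome 9 from 125234853 to 125241330.

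Of the lectin chaperones, which bind glycoproteins with trimmed sugars, 1 of 2 rose. Membrane-bound calnexin, CANX, had 605 with ML290 and 443 with DMSO per the authors' deposited table, a rise of 1.37-fold (adjusted p = 4.88e-05). Its soluble relative calreticulin, CALR, had 900.1 against 941 per the authors' deposited table, a ratio of 0.957 (adjusted p = 0.402). Whether this pair differs from each other was not tested. Per kb of the longest protein-coding transcript, CALR had the highest level of all members, at 484 normalised read counts, followed by HSP90B1 at 162, HSPA5 at 138 and CANX at 123.

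Of the 5 enzymes that form and rearrange disulfide bonds, 2 rose and 3 did not pass the test. PDIA3, the isomerase that works with calnexin and calreticulin, had 297 with ML290 against 299.7 with DMSO per the authors' deposited table (adjusted p = 0.880). PDIA4 had 173 against 169 (adjusted p = 0.665) and PDIA6 had 202 against 218 (adjusted p = 0.105) per the authors' deposited table. Among these 5 members, both that rose were scarcer than the 3 that did not pass. Outside the members, the abundant isomerase P4HB was higher, at 1147 against 969 (adjusted p = 0.0079), per the authors' deposited table. Its relative ERP44 did not pass, at 44.8 against 40.0 (adjusted p = 0.117), per the authors' deposited table. PDIA5 had 17.2 against 12.0, 1.43-fold higher (adjusted p = 0.000423), per the authors' deposited table. The oxidase ERO1B, which recharges the isomerases, had 4.33 against 2.32, 1.86-fold higher (adjusted p = 0.00699), per the authors' deposited table. PDIA3 has a pseudogene in the table, PDIA3P1, with 50.7 against 55.9 (adjusted p = 0.135) per the authors' deposited table, and reads of the pair may be split.

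The J-domain proteins, which deliver clients to BiP and drive its ATP cycle, rose with 1 exception. DNAJB9, also called ERdj4, had 23.5 with ML290 and 7.94 with DMSO per the authors' deposited table, a rise of 2.96-fold (adjusted p = 1.98e-07), the largest ratio of the 37. Only 112 of the 14870 rows had a larger one. DNAJC10, a reductase that prepares proteins for degradation, had 61.6 against 38.5, 1.60-fold higher (adjusted p = 0.000193), per the authors' deposited table. DNAJC3, or p58IPK, was 1.32-fold higher at 50.3 against 38.0005, and SDF2L1, a partner of DNAJB11 without a J domain, 1.29-fold higher at 36.0 against 27.9, per the authors' deposited table (adjusted p = 0.000760 and 0.00556). DNAJB11 itself had 37.3 against 37.9 (adjusted p = 0.808) per the authors' deposited table. Of the secreted stress proteins, the neurotrophic factor MANF had 86.3 against 68.4, 1.26-fold higher (adjusted p = 0.000417), per the authors' deposited table. CRELD2 had 25.6 against 26.9 (adjusted p = 0.511) per the authors' deposited table.

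Of 13 degradation genes among the members, 10 rose and none fell, per the authors' deposited table. All 13 had a ratio above 1, from 1.01 to 2.75, per the authors' deposited table. Over all rows, 19.5% were higher and 52.4% had a ratio above 1. Further ERAD genes, given below, were more mixed. HERPUD1, a membrane protein that organises the HRD1 ligase complex, had 55.0 with ML290 and 20.003 with DMSO per the authors' deposited table, a rise of 2.75-fold (adjusted p = 3.12e-09). SYVN1, the ubiquitin ligase HRD1 at the core of that complex, had 86.9 against 49.7, 1.75-fold higher (adjusted p = 2.93e-06), per the authors' deposited table. Its partner SEL1L was 1.25-fold higher at 65.5 against 52.3 (adjusted p = 0.00183) per the authors' deposited table. The ubiquitin-conjugating enzyme UBE2J1 was 1.23-fold higher at 76.7 against 62.2 (adjusted p = 0.00266) per the authors' deposited table. HERPUD1 lies on chromosome 16 from 56932048 to 56944863 and SYVN1 on chromosome 11 from 65121780 to 65134533.

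Selenoproteins and derlins, which link the complex to the ATPase that extracts its clients, rose in 4 of 5 cases, where 19.5% of all rows were higher. One of the 4, DERL3, is uncertain for the reason given below. VIMP, now named SELENOS, had 39.4 with ML290 and 19.999 with DMSO, 1.97-fold higher (adjusted p = 2.57e-07), per the authors' deposited table. SELK, now SELENOK, was 1.34-fold higher at 20.7 against 15.5 (adjusted p = 0.000735) per the authors' deposited table. DERL1 was 1.27-fold higher at 63.8 against 50.1 (adjusted p = 0.000824), while DERL2 had 21.9 against 20.5 (adjusted p = 0.494), per the authors' deposited table. DERL3 had 6.85 against 3.55, 1.93-fold higher (adjusted p = 4.03e-05), per the authors' deposited table. That value is uncertain, because 87.3% of the exon length of DERL3 lies under exons of SMARCB1 on the opposite strand and the use of strand in counting is not given. SMARCB1 had 56.3 against 66.7, a ratio of 0.844, per the authors' deposited table. In all, 11 members have exons under a gene on the opposite strand. The next largest shares of exon length were at most 37.8% for PDIA3, 29.7% for PDIA6, 24.4% for OS9 and 15.9% for DNAJB11. None of these 4 passed the test. The share of PDIA3 is summed over 3 genes, so bases under more than 1 of them count more than 1 time.

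The lectins and mannosidases that mark glycoproteins for disposal rose in 2 of 4 cases. EDEM1 had 82.8 with ML290 and 52.3 with DMSO, 1.58-fold higher (adjusted p = 2.44e-06), per the authors' deposited table. EDEM3 was 1.35-fold higher at 26.9 against 19.9 (adjusted p = 0.00379) per the authors' deposited table. EDEM2 had 24.9 against 24.5 (adjusted p = 0.797), and the lectin OS9 had 189 against 188 (adjusted p = 0.923), per the authors' deposited table. Of the 2 members outside these roles, the ubiquitin-like modifier UFM1 had 63.1 against 30.6, 2.06-fold higher (adjusted p = 4.21e-06), per the authors' deposited table. Wolframin, WFS1, an ER membrane protein whose loss causes Wolfram syndrome and which acts on ATF6 stability, had 52.0 with ML290 and 70.3 with DMSO, a ratio of 0.739 (adjusted p = 0.00233), per the authors' deposited table.

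Chaperones and degradation can be set side by side, with no test between them. Beside the counts in this paragraph, 19.5% of all rows were higher, and the median log2 ratio of all rows was 0.02. Of the 16 chaperones, disulfide enzymes and co-chaperones, 11 were higher, with a median log2 ratio of 0.39, and of the 13 degradation genes 10 were higher, with a median of 0.42, per the authors' deposited table. Targets known for ATF6 numbered 9 (HSPA5, HSP90B1, HYOU1, CALR, PDIA4, CRELD2, HERPUD1, SEL1L and XBP1), of which 6 were higher, with a median log2 ratio of 0.29 per the authors' deposited table. Without XBP1, which is also the substrate of IRE1, 5 of 8 were higher, with a median of 0.24. Targets known for XBP1 numbered 7 (DNAJB9, DNAJC3, EDEM1, EDEM2, EDEM3, DERL1 and DERL2), of which 5 were higher, with a median of 0.40 per the authors' deposited table. Each branch held members of very different size. The ATF6 targets ran from a log2 ratio of -0.08 for CRELD2 to 1.46 for HERPUD1, and the XBP1 targets from 0.03 for EDEM2 to 1.57 for DNAJB9, per the authors' deposited table. Many of these genes answer to both factors, so the lists do not separate the branches cleanly.

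**Figure D2:**
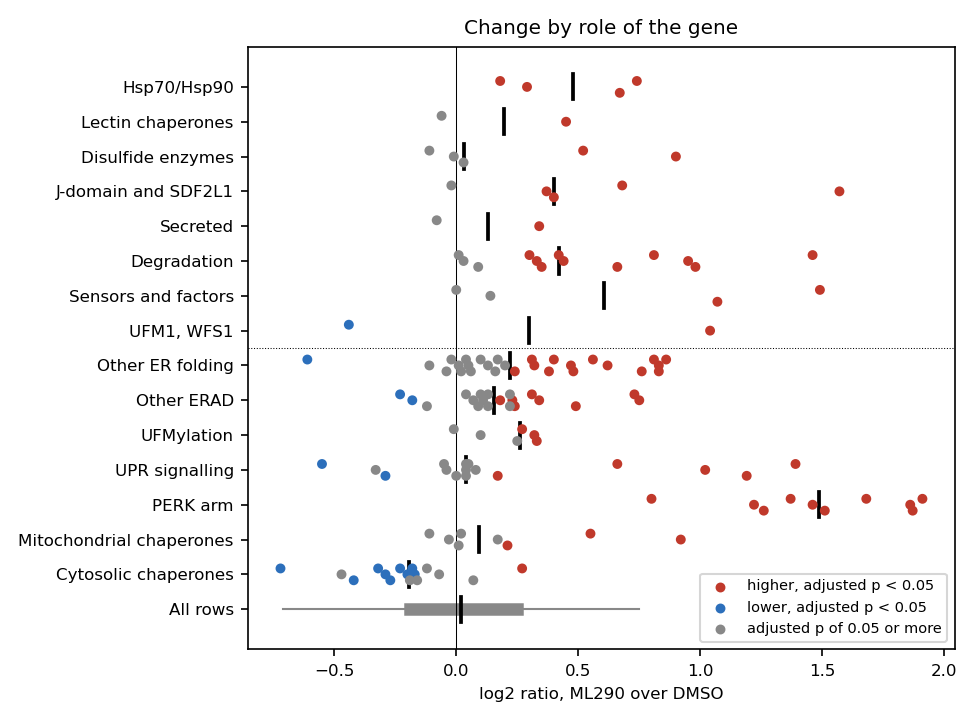
Log2 ratio of ML290 over DMSO for each gene, by role: members above the dotted line and lists of related genes below it, with the median of each as a black bar. Red points were higher and blue points lower at an adjusted p under 0.05; for all rows the thick bar runs from the 25th to the 75th percentile and the thin line from the 5th to the 95th. Every PERK arm gene is red, and the cytosolic chaperones hold 9 blue points and 1 red.

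The members can also be ordered by level. Of the 9 members with a mean level of at least 100 normalised read counts, 4 were higher, and of the 28 below it 21 were higher, per the authors' deposited table. Over all rows 19.5% were higher, and among rows with a level of at least 10, 26.5%. The share of all rows on either side of 100 was not computed, so whether this split is particular to the members cannot be told. Across the 37 members Spearman's rho of log2 ratio against level was -0.37, where over all rows it was 0.04. The genes share the same 8 libraries, and scarce genes have noisier ratios, so this is a description. All 5 members above 2-fold had a mean level under 100. The largest difference in group means among the members was that of HSPA5, 271 normalised read counts.

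**Figure D3:**
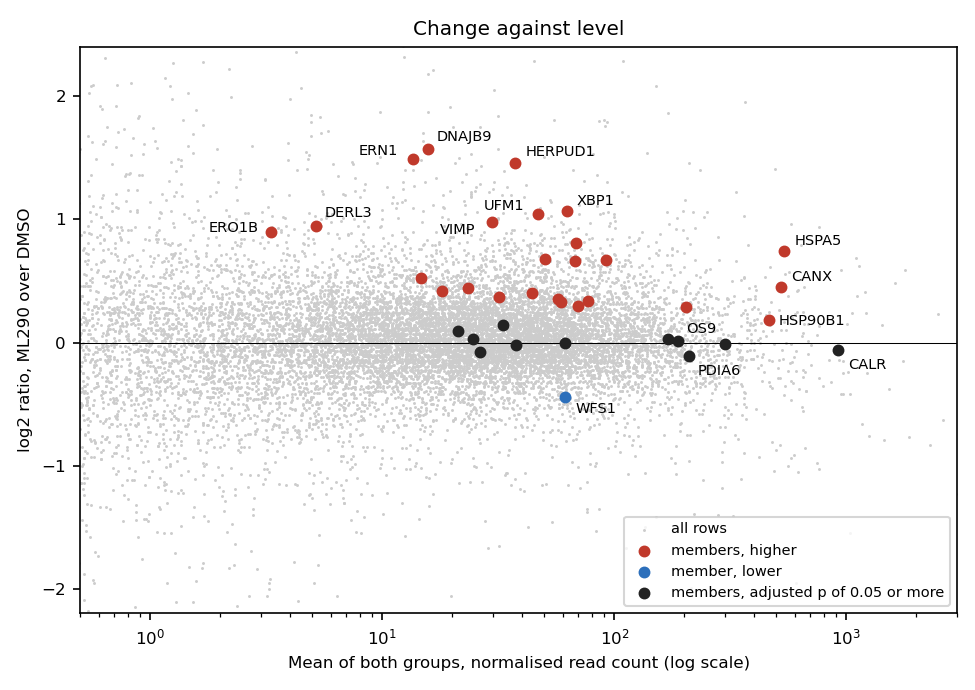
Log2 ratio of ML290 over DMSO against the mean of both groups in normalised read counts on a log axis, for all rows (grey) and the 37 members (red higher, blue lower, black adjusted p of 0.05 or more). Most members lie above 0, and the most abundant one, CALR, lies just below it at -0.06. Rows beyond the axes are not drawn.

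The promoter matches can be set beside the responses as a description. Of the 8 members with an exact ERSE, 5 were higher per the authors' deposited table (HSPA5, HSP90B1, CANX, XBP1 and ERO1B), and CALR, CRELD2 and PDIA6 did not pass. All 3 members with an ERSE-II were higher, as were the 3 with a UPRE core, HYOU1, DNAJC10 and UBE2J1. Of the 34 members with an entry, 23 were higher, so most higher members held none of these letters in the window, among them DNAJB9, ERN1, SYVN1 and UFM1. All matches lay before the start, the nearest in XBP1, from -52 to -34, and the farthest in ERO1B, from -243 to -225. In HSPA5 the match stood from -66 to -48. The CRELD2 match also lies before ALG12, a mannosyltransferase gene on the other strand with 21.0 against 19.9 (adjusted p = 0.483) per the authors' deposited table.

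**Figure D4:**
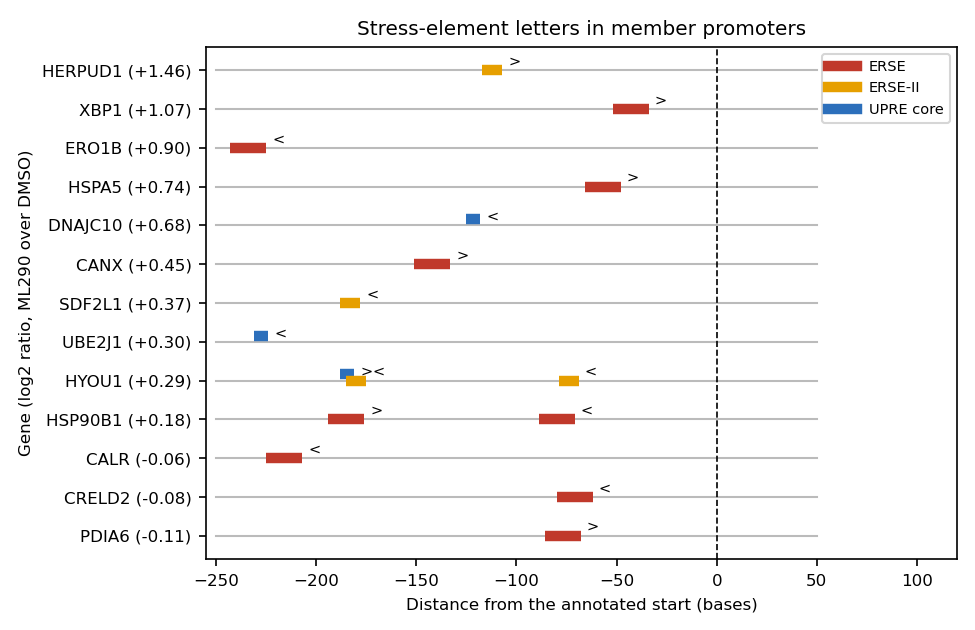
Positions of exact ERSE (red), ERSE-II (orange) and UPRE core (blue) letters in the promoters of the 13 members that hold any, in bases from the annotated start, ordered by log2 ratio of ML290 over DMSO. The mark beside each match points right for the strand of the gene and left for the other. CALR, CRELD2 and PDIA6 hold an ERSE with log2 ratios of -0.06, -0.08 and -0.11.

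Lists of related genes give the surroundings of these members. Beside the counts in these lists, 19.5% of all rows were higher and 15.6% lower with ML290. Of 29 further folding genes, 28 were listed, of which 14 were higher and 1 lower, with a median log2 ratio of 0.22, per the authors' deposited table. KDELR2 and KDELR3, receptors that return escaped chaperones to the ER, were 1.70-fold and 1.75-fold higher (adjusted p = 2.57e-07 and 2.93e-06) per the authors' deposited table. The glucosidase subunit GANAB had 687 against 682 (adjusted p = 0.909), and the 1 lower gene was the collagen chaperone SERPINH1, with 244 against 373, per the authors' deposited table. Of 20 further ERAD genes, 8 were higher and 2 lower, with a median of 0.15, per the authors' deposited table. The signal peptide peptidase HM13 was 1.68-fold and the lectin ERLEC1 1.66-fold higher (adjusted p = 6.89e-07 and 0.000120) per the authors' deposited table. NPLOC4, a cofactor of the extracting ATPase, had 194 against 189.5 (adjusted p = 0.716), and the ATPase itself, VCP, was one of the 2 lower, with 201 against 236 (adjusted p = 0.0023), per the authors' deposited table.

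The enzymes that attach or remove UFM1 form a further list. Of 6, 3 were higher and none lower, with a median log2 ratio of 0.26, per the authors' deposited table. The ligase adaptor CDK5RAP3 was 1.24-fold higher (adjusted p = 0.00571), and the protease UFSP2 had 10.3 against 10.4 (adjusted p = 0.929), per the authors' deposited table. Of 16 signalling genes of the response, 5 were higher (31.2%) and 2 lower, with a median of 0.04, per the authors' deposited table. The share is near the 26.5% higher among rows with a level of at least 10. The median is near the 0.02 of all rows. The stress-induced chromatin protein NUPR1 was 2.61-fold and the translocon protein SERP1 2.03-fold higher (adjusted p = 1.21e-08 and 3.36e-07), and the CCAAT-binding subunit NFYC had a ratio of 0.999 (adjusted p = 0.984), per the authors' deposited table. The sensor PERK, EIF2AK3, was among the higher ones, with 33.4 against 14.6, 2.28-fold (adjusted p = 4.23e-07), per the authors' deposited table. The 2 lower ones were CREB3L1, with a ratio of 0.681, and NFYA, with 0.816 (adjusted p = 4.09e-05 and 0.0052), per the authors' deposited table.

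Genes downstream of PERK and ATF4 rose. All 10 listed were higher, with a median log2 ratio of 1.49, per the authors' deposited table, where 19.5% of all rows were higher. This list, like the others, was chosen with earlier results of these data known, so the count is a description. DDIT3, which encodes CHOP, was 3.75-fold and the pseudokinase TRIB3 2.86-fold higher (adjusted p = 5.38e-09 and 1.13e-08), and the lipoprotein receptor VLDLR, at low level, 2.34-fold (adjusted p = 0.000715), per the authors' deposited table. These genes also answer to other kinases that raise ATF4, which gene-level values cannot separate.

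The cytosol and mitochondria have chaperones of their own. Of 16 cytosolic chaperones, 1 was higher and 9 lower, with a median log2 ratio of -0.19, per the authors' deposited table. Over all rows, 19.5% were higher and 15.6% lower. The constitutive Hsp70, HSPA8, had 816 with ML290 and 1089 with DMSO, a ratio of 0.749, and the small heat shock protein HSPB1 145 against 238, a ratio of 0.607 (adjusted p = 4.11e-05 and 4.98e-05), per the authors' deposited table. The co-chaperone BAG3 had 86.3 against 82.3 (adjusted p = 0.409), and HSPH1 was the higher one at 1.21-fold, per the authors' deposited table. Reads of HSPA1A may be shared with its near-identical copy HSPA1B. Of 8 mitochondrial chaperones and proteases, 3 were higher and none lower, with a median of 0.10, per the authors' deposited table. The protease LONP1 was 1.89-fold and the Hsp70 HSPA9 1.47-fold higher (adjusted p = 9.55e-08 and 4.13e-06), and TRAP1 had 48.6 against 48.4 (adjusted p = 0.974), per the authors' deposited table. No test between these lists was made.

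Other rules for a call gave these counts, each beside its share of all rows. At an adjusted p under 0.01, 24 members were higher, against 12.9% of all rows. With Benjamini-Yekutieli adjustment 22 were higher, against 10.9% of rows, and with Bonferroni adjustment 11, against 3.63%. A fold of at least 1.5 beside the threshold left 13, against 6.01% of rows. Among rows with a level of at least 10, 23 of 35 members were higher, against 26.5%, and among rows of at least 1, 25 of 37, against 22.6%.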

How the data were processed

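Total RNA of LX-2 cells was extracted with Trizol and columns and made into Illumina libraries, per the labels' protocols. The submitters' processing notes list STAR, Partek and the build GRCh38 and state no version or order. How reads were counted, filtered, normalised and tested, and whether strand was used, is not given in the sources used here. One table, which the authors deposited, holds 1 comparison. Per the file headers its group means are least-squares means, a signal on a normalised read-count scale. Their sums are 698420 (ML290) and 702849 (DMSO). The ratio and signed fold (a score) that the authors deposited are ML290 over DMSO, and minus the inverse of that below 1. Each row also has the p-value that the authors deposited and its step-up adjustment.

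Computed here were log2 ratios, levels (the deposited total over 8 samples), counts past an adjusted p of 0.05, medians and promoter matches. The members and all gene lists were chosen with earlier results of these data known. The design allowed for values per sample. The file holds group means, so the authors' adjusted p is the test throughout. Every member is named. Of each related list the 2 genes with the smallest and the 1 with the largest adjusted p are named, except 1 that is not reported here. SERPINH1, VCP, EIF2AK3, CREB3L1, NFYA, HSPH1, P4HB, ERP44, ALG12, SMARCB1, PDIA3P1 and the genes in the closing section were named after their values were seen. Coordinates, transcript lengths and exon overlaps come from the GENCODE 29 basic set on GRCh38, and promoters from RefSeq on GRCh38.p14. Promoter entries matched 10914 of the 14869 symbols. SELK and VIMP were matched by their newer symbols. A protein table was not used. Scripts were tested on simulated data and ran under Python 3.11.15 with pandas 2.3.3, numpy 2.4.6 and scipy 1.17.1, and matplotlib 3.10.9 drew the figures. Alternatives tried were other thresholds, adjustments and level filters, a fold minimum, centring and 1 mismatch in the motif.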

Additional observations from a re-analysis of the deposited data

How the results depend on the processing

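No paired analysis was possible because the table holds group means; for the same reason leaving out replicates and another tool could not be run. The sample titles of both groups end in the same numbers, which may pair samples across groups, and whether the authors' test used a pairing is not given in the sources used here. Of the 26 members called, HSP90B1 alone was lost at an adjusted p under 0.01, and HSP90B1, SDF2L1 and ERO1B under Benjamini-Yekutieli adjustment. Bonferroni adjustment lost 15 and a fold of at least 1.5 lost 13, WFS1 in both. Centring on the median of all rows (0.019) kept the authors' adjusted p and shifted only the ratios. It could therefore not change which members passed. It turned OS9, which was not called, to -0.01.

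Counts of higher genes that moved by more than 1.5 times are given as Bonferroni, then a fold of at least 1.5. They were 11 and 13 for the members (0 and 0 lower), 3 and 5 for chaperones, 5 and 5 for degradation, 3 and 3 for ATF6 targets and 2 and 2 for XBP1 targets. For the Hsp70 and Hsp90 chaperones they were 1 and 2, for disulfide enzymes 0 and 1, for J-domain proteins with SDF2L1 1 and 2, for secreted proteins 0 and 0, for other ER folding 8 and 6, for other ERAD 1 and 2, for UFM1 enzymes 0 and 0 and for cytosolic chaperones 0 and 0. Lower counts became 0 and 0 for WFS1, 0 and 0 for other ERAD, 1 and 0 for signalling genes and 2 and 1 for cytosolic chaperones. The fold minimum left 0 lectin chaperones and 1 mitochondrial gene higher. Benjamini-Yekutieli adjustment left 1 disulfide enzyme, 4 other ERAD genes, 0 UFM1 enzymes and 0 cytosolic chaperones higher, and 1 other ERAD gene, 1 signalling gene and 5 cytosolic chaperones lower. An adjusted p under 0.01 left 1 other ERAD gene lower, and a level of at least 10 left 1 disulfide enzyme higher. With 1 mismatch allowed in the CCACG part, 14 members held an ERSE and 5 an ERSE-II. The precision of the group means cannot be given without values per sample.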

Other observations

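Outside the members, 8 genes of the table held an exact ERSE in a promoter entry, of which 4 were higher and 1 lower per the authors' deposited table. FICD, the enzyme that modifies BiP with AMP, had 17.5 with ML290 and 7.12 with DMSO, 2.47-fold higher (adjusted p = 1.09e-06), and SERP1 was 2.03-fold higher, per the authors' deposited table. EIF2A was 1.53-fold and TMEM120A 1.20-fold higher, and the lower gene was the actin-associated SYNPO, with 31.7 against 70.3, per the authors' deposited table. ALG12, TRIM5 and ZNF17 did not pass. When 1 mismatch was allowed in the CCACG part, 186 genes of the table held the ERSE, 40 of them (21.5%) higher and 39 lower. Among all 10914 genes with an entry, 19.9% were higher and 16.1% lower. Outside the members, the exact ERSE-II stood in 11 genes of the table, of which 2 were higher and 1 lower per the authors' deposited table. With 1 mismatch, 190 genes, members included, held an ERSE-II, 43 of them (22.6%) higher and 38 lower.

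The exact UPRE core stood in a promoter of 128 genes of the table. Of these, 64 (50%) were higher and 11 lower, with a median log2 ratio of 0.28, per the authors' deposited table. Among all 10914 genes with an entry, 19.9% were higher and 16.1% lower. Leaving out the 3 members, 61 of 125 genes with the core were higher. Among them, the COPII coat gene SEC24A had 84.1 with ML290 and 44.4 with DMSO, 1.90-fold higher (adjusted p = 1.98e-07), and the COPI coat gene COPA was 1.48-fold higher (adjusted p = 2.44e-06), per the authors' deposited table. The 11 lower genes included CPE, with a ratio of 0.407, and VCP, with 0.850 (adjusted p = 1.23e-05 and 0.0023), per the authors' deposited table. These letters are a description of the promoters, and which factor, if any, acts on them was not tested.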
